A study of Mus musculus with 16 samples.

Results

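The genes described here are 10 genes that mark intestinal macrophages or encode the complement protein C1q, taken by symbol from a table of 46078 mouse genes: Adgre1, Csf1r, Cx3cr1, Itgax, Mrc1, Cd14, Lyz2, C1qa, C1qb and C1qc. RNA was sequenced from the ileal mucosa of 16 mice on a C57Bl/6 background, 4 in each of male Slfn3KO, male WT, female Slfn3KO and female WT groups, to ask how loss of Schlafen 3 (Slfn3) alters the intestine in each sex. The Slfn3KO mice carry the deletion in the whole animal and come from a single line, the WT mice are littermates, and the labels name no treatment. The labels give every mouse an age of 8 weeks, whereas the methods of the study state an older age. Each library held 20823279 to 30813117 counted reads. All 10 genes passed the filter on low counts in every comparison.

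The lamina propria of the gut holds a large population of macrophages, renewed from blood monocytes and kept alive by signals through the receptor encoded by Csf1r. These cells take up bacteria and dying cells close beneath the epithelium and show little inflammatory response while doing so. C1q is the recognition protein of the classical complement pathway. It binds antibody complexes and dying cells, is built from the products of C1qa, C1qb and C1qc in equal parts, and in many tissues is made chiefly by macrophages.

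In 4 of the 8 WT libraries, replicates 3 and 4 of both labelled sexes, the transcripts that differ between the sexes went against the label, while they followed it in the other 12 libraries. For each of the 10 genes the comparison of genotypes over both sexes is therefore given with all mice and again without these 4. The targeted gene, Slfn3, had 0 to 2 reads in each Slfn3KO library and 0 to 19 in each WT library, so the genotypes overlapped and the count gave only a weak check of the label. WT replicates 3 and 4 had 7 and 13 reads in females and 19 and 0 in males. WT replicates 1 and 2 had 1 and 4 in females and 1 and 2 in males, close to the Slfn3KO range. Leaving out the 4 libraries thus removes the WT libraries with the most Slfn3 reads, and which set compares the genotypes better was not tested. Enterocyte genes summed to 23038 to 36345 CPM, the reads of a gene scaled to a common library size, in Slfn3KO mice and 31006 to 45061 in WT mice. Of the bile acid carriers that mark the ileum, Fabp6 was at 2736 to 12460 and 1799 to 15725 CPM, and Slc10a2 at 63.2 to 447 and 51.7 to 469 CPM.

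On the mm10 build, C1qa (ENSMUSG00000036887, chr4:136895917-136898803), C1qc (ENSMUSG00000036896, chr4:136889804-136893065) and C1qb (ENSMUSG00000036905, chr4:136880129-136886187) lie on the minus strand within 18.7 kb of each other. Lyz2 (ENSMUSG00000069516, chr10:117277334-117282274, minus strand) lies 5.52 kb from its paralog Lyz1 (ENSMUSG00000069515, chr10:117287796-117292868, minus strand), the lysozyme of Paneth cells. Adgre1 (ENSMUSG00000004730) is at chr17:57358686-57483529, Itgax (ENSMUSG00000030789) at chr7:128129547-128150656 and Mrc1 (ENSMUSG00000026712) at chr2:14229392-14332057, all on the plus strand. Cx3cr1 (ENSMUSG00000052336) is at chr9:119901616-120068283 on the minus strand. Csf1r (ENSMUSG00000024621) and Cd14 (ENSMUSG00000051439) are both on chromosome 18.

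Lyz2 and Lyz1 needed care because they resemble each other. Of the 1267 stretches of 50 bases, the length of a read, in the annotated Lyz2 transcript, 15.4% also occur unchanged in Lyz1 and 42.3% have a match in Lyz1 with at most 1 mismatch. Itgax shared 8.02% of its stretches with other genes and Cx3cr1 shared 0.269%, while the remaining 7 genes shared 0. How reads that fit more than 1 gene were counted was not given in the sources used here, so the Lyz2 level is uncertain. Lyz1 was 2.85 to 181 times Lyz2 in CPM over the 16 mice. Whether reads of Lyz1 added to the Lyz2 counts, and by how much, was not tested.

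The stretches just upstream of these genes are shown for Lyz2 and Lyz1, which are alike in sequence but not in level, and for C1qb and C1qc, whose levels moved together. The sequences are from RefSeq (build GRCm38.p6), 5′ to 3′ on the gene's own strand, with capitals on ACTTCCT, the reverse complement of AGGAAGT, a core recognized by PU.1 and other factors of the ETS family. They cover chr10:117282275-117282522 for Lyz2, chr10:117292869-117293118 for Lyz1, chr4:136886201-136886450 for C1qb and chr4:136893066-136893164 for C1qc, all on the minus strand. The stretch shown for C1qc ends 151 bases before its RefSeq start and that for Lyz2 ends 2 bases before, because the gene begins there in the table used here.
Lyz2: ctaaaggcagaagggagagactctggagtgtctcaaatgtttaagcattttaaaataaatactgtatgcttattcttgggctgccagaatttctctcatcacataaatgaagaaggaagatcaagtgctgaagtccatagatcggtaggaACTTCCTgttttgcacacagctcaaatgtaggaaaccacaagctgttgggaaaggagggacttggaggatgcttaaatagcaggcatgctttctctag
Lyz1: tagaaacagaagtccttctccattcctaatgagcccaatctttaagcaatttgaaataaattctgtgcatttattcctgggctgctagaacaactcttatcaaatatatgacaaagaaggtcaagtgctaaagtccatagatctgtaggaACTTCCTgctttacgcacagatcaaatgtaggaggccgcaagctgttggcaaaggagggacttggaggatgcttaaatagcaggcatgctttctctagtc
C1qb: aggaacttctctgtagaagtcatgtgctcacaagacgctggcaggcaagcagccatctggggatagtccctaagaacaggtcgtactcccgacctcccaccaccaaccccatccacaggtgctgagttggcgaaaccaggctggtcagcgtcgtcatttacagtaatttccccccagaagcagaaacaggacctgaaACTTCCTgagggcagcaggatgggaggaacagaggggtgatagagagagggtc
C1qc: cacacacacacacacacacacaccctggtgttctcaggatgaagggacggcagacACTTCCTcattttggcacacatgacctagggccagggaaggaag

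RefSeq windows, from 250 bases before to 50 bases after the start, were matched for 6 of the 10 genes (Lyz2, C1qb, C1qc, Mrc1, Itgax and Cx3cr1) and for Lyz1. The motif was present on either strand in 4 of these 6, against 9.35% of all 32851 windows of that length. It stood 100 bases before the start in both Lyz2 and Lyz1, 53 before in C1qb, 195 before in C1qc and 211 before in Mrc1. Over the last 100 bases before the start, Lyz2 and Lyz1 were identical at 92 positions, and over the 150 bases farther upstream at 60 positions when lined up without gaps. A match is a description of these letters and not evidence of binding.

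Levels of different genes can be compared only per length, so CPM was divided by the exon length in kb that the table gives. Lyz2, the lysozyme of macrophages and neutrophils, was highest at 40.5 ± 36.1 CPM per kb (SD, n = 16), followed by C1qa at 12.9 ± 4.68 and C1qb at 10.98 ± 4.32. In every mouse Lyz2 was above C1qa, C1qa above C1qb and C1qb above Cd14. Cd14 at 5.89 ± 1.61 and C1qc at 5.37 ± 1.97 were not set apart, with Cd14 the higher in 9 of 16 mice. C1qc was in turn above Csf1r (3.12 ± 0.92) in all 16 mice, and Csf1r above Itgax (2.53 ± 0.74) in 14. The lowest levels per kb were those of Cx3cr1 (0.742 ± 0.235), Mrc1 (0.590 ± 0.188) and Adgre1 (0.560 ± 0.200). Cx3cr1 was above Mrc1 in 12 mice and Mrc1 above Adgre1 in 8, so the order of Mrc1 and Adgre1 was not resolved. The lengths add up all annotated isoforms of a gene, which lowers the value of a gene with many isoforms.

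None of the 10 genes passed the test between genotypes. With both sexes in the fit, the quasi-likelihood test of edgeR, adjusted by Benjamini-Hochberg, called 0 of the 10 at an adjusted p under 0.05 and at least 1.5-fold, beside 0% of all 14822 genes tested, the smallest adjusted p of any gene being 0.327. DESeq2 called 0 of the 10 as well, and 54 genes in all. At an unadjusted p under 0.05 with at least 1.5-fold, 1 of the 10 was past the rule (Lyz2), beside 6.64% of all genes. With no fold threshold 2 of the 10 were (Lyz2 and Mrc1), beside 11.9%. The fitted log2 difference, Slfn3KO minus WT, was below 0 for 8 genes and above 0 for 2, beside 50.7% of all genes below 0, with a median of -0.19 over the 10 and -0.0037 over all genes. A p above the threshold does not show that the genotypes were alike, and the standard errors given below mark what the design could resolve.

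The direction rested on the 4 WT libraries. Without them the log2 difference was above 0 for 9 of the 10 genes, beside 52.7% of all genes, and below 0 for 1 (Mrc1), and the median was 0.19 over the 10 and 0.014 over all genes. None of the 10 then had an unadjusted p under 0.05 with 1.5-fold, beside 2.9% of all genes. Male WT replicate 3 carried most of this: it had the highest value of all 16 mice for 8 of the 10 genes, and leaving it out alone moved the median to 0.0094. At the other end, male Slfn3KO replicate 1 had the lowest value for 6 of the 10, and the median was -0.31 without male Slfn3KO replicate 3. Within the sexes, the difference was below 0 for 9 of the 10 in males, beside 50.4% of all genes, and for 7 of the 10 in females, beside 51.1%. With WT replicates 3 and 4 left out it was above 0 for 7 of the 10 in males, beside 53.9% of all genes, and for 9 of the 10 in females, beside 50.1%. At an unadjusted p under 0.05 with 1.5-fold, 0 of the 10 were past the rule in males, beside 1.93% of all genes, and 1 (Lyz2) in females, beside 9.71%. In no comparison, within a sex or across both, were all Slfn3KO mice above or below all WT mice for any of the 10 genes, beside 0.027% of all genes with both sexes, 2.36% in males and 7.89% in females.

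**Figure D1:**
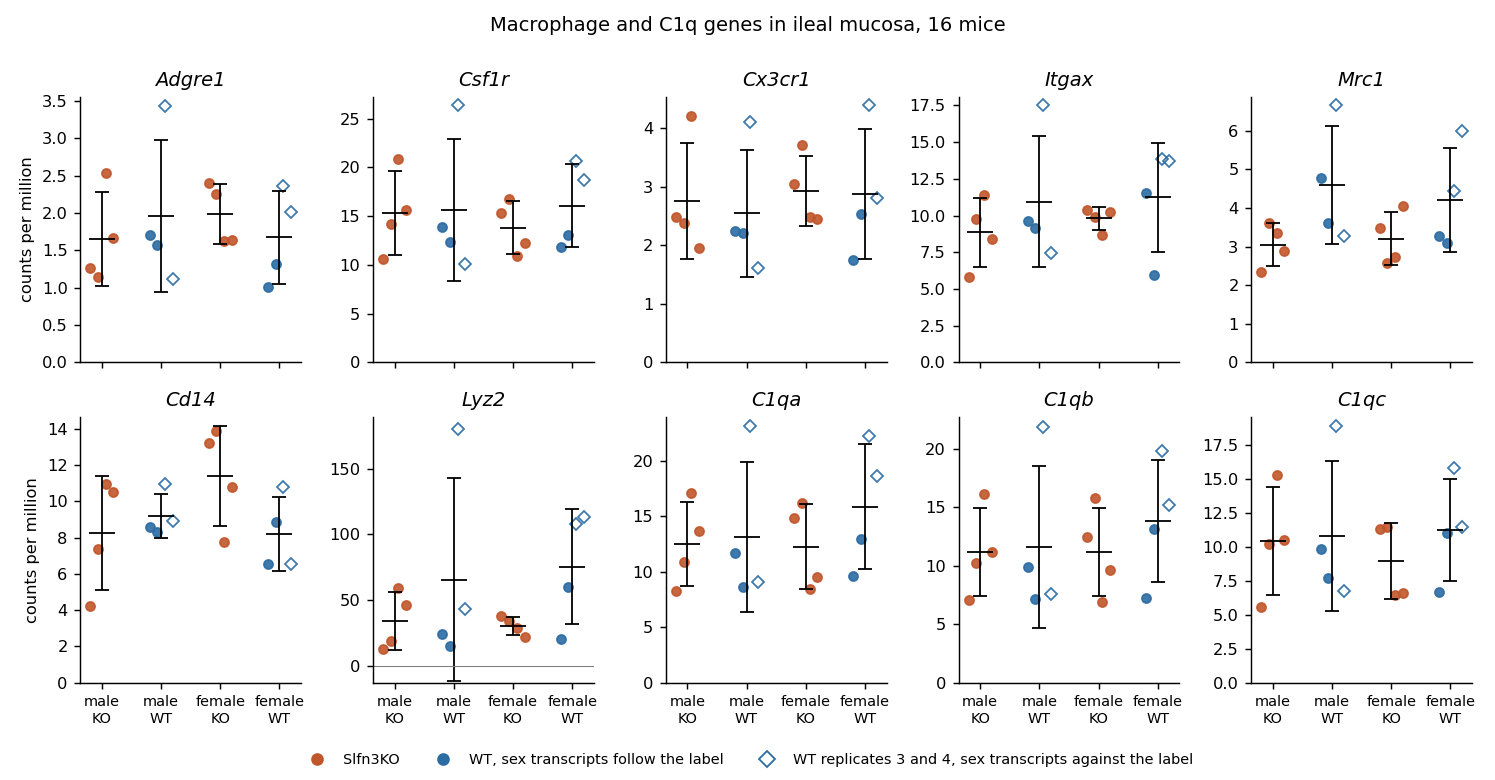
CPM of each of the 10 genes in each mouse, by labelled sex and genotype (KO, Slfn3KO), with the mean and SD of each group of 4 as black bars. Diamonds are the 4 WT libraries with sex transcripts against the label. The genotypes overlap in every panel, and the WT diamond at 180 CPM of Lyz2 is male WT replicate 3.

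Among the surface receptors, Csf1r encodes the receptor for the growth factors CSF1 and IL-34. Its level was 10.6, 14.2, 20.9 and 15.6 CPM in the male Slfn3KO mice and 13.9, 12.3, 26.3 and 10.1 in the male WT mice. Female Slfn3KO mice had 15.4, 16.8, 10.9 and 12.3 CPM and female WT mice 11.9, 13.1, 20.6 and 18.8. The groups overlapped in both sexes, and the highest values were those of male WT replicate 3 and male Slfn3KO replicate 3. The log2 difference was -0.12 ± 0.20 (SE; unadjusted p = 0.544, adjusted p = 0.808 by edgeR) with all mice and 0.18 ± 0.16 without the 4 WT libraries (unadjusted p = 0.285).

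Adgre1, which encodes the adhesion receptor most used to stain mouse macrophages, had few reads, 20 to 101 per library. It was at 1.26, 1.15, 2.54 and 1.66 CPM in the male Slfn3KO mice and 1.70, 1.58, 3.43 and 1.12 in the male WT mice. Values of 2.41, 2.25, 1.63 and 1.64 CPM in female Slfn3KO mice stood beside 1.004, 1.31, 2.36 and 2.02 in female WT mice. The genotype means were equal at 1.82 CPM, with SDs of 0.521 for Slfn3KO and 0.794 for WT (n = 8 each). Its log2 difference was -0.0027 ± 0.26 with all mice and 0.36 ± 0.26 without the 4 WT libraries. In females alone it was 0.23 ± 0.31, and 0.76 ± 0.31 when female WT replicates 3 and 4 were left out. The unadjusted p was then 0.0472 and the adjusted p by edgeR 0.200, with 15.9% of all genes past an unadjusted p under 0.05 and 1.5-fold in that comparison.

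Cx3cr1, the receptor for fractalkine and a marker of resident gut macrophages, ranged from 1.95 to 4.20 CPM (median 2.49) in Slfn3KO mice and from 1.62 to 4.39 (median 2.39) in WT mice. Itgax, the integrin subunit CD11c of macrophages and dendritic cells, ranged from 5.84 to 11.4 CPM (median 9.83) and from 5.93 to 17.5 (median 10.6). For both genes the WT range contained nearly the whole Slfn3KO range. The log2 differences were 0.07 ± 0.23 for Cx3cr1 and -0.25 ± 0.20 for Itgax with all mice, and 0.37 ± 0.22 and 0.04 ± 0.19 without the 4 WT libraries. None of these had an unadjusted p under 0.05.

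Mrc1, the mannose receptor of tissue macrophages, showed the smallest p of the 10. It was at 2.34, 3.61, 3.35 and 2.90 CPM in male Slfn3KO mice and 4.77, 3.61, 6.66 and 3.28 in male WT mice. Female Slfn3KO mice had 3.48, 2.58, 2.72 and 4.05 CPM and female WT mice 3.26, 3.09, 4.43 and 6.00. All 8 WT mice were at or above 3.09 CPM, 4 of the 8 Slfn3KO mice were below it, and the groups overlapped between 3.09 and 4.05. The log2 difference was -0.49 ± 0.19 with an unadjusted p of 0.0199 and an adjusted p of 0.336 by edgeR, and without the 4 WT libraries it was -0.23 ± 0.19 (unadjusted p = 0.248). Leaving out male WT replicate 3 or female WT replicate 4 alone put the unadjusted p above 0.05, at most at 0.0563.

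Cd14 encodes the co-receptor that hands bacterial lipopolysaccharide (LPS) to the receptor complex of Tlr4 and Ly96. Its values were 4.22, 7.38, 10.98 and 10.5 CPM in male Slfn3KO mice and 8.58, 8.31, 10.9 and 8.94 in male WT mice. In females they were 13.2, 13.9, 7.77 and 10.8 CPM for Slfn3KO and 6.53, 8.85, 10.8 and 6.57 for WT. Here the female Slfn3KO mice held the 2 highest values of all mice, and male Slfn3KO replicate 1 the lowest. With both sexes the log2 difference was 0.16 ± 0.20 (unadjusted p = 0.438) with all mice and 0.25 ± 0.25 (unadjusted p = 0.337) without the 4 WT libraries. It was -0.16 ± 0.28 in males and 0.47 ± 0.23 in females, or -0.03 ± 0.35 and 0.56 ± 0.27 with WT replicates 3 and 4 left out. The difference between the sexes, 0.63 ± 0.39, had an unadjusted p of 0.122 and an adjusted p of 0.503 by edgeR, the smallest p for such a difference among the 10 genes with all mice. With those replicates left out it was 0.60 ± 0.48 (unadjusted p = 0.236).

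Of the 10 genes, Lyz2 varied most between mice and differed most between genotypes. Its levels were 12.5, 18.6, 58.8 and 46.3 CPM in the male Slfn3KO mice and 23.8, 15.1, 180 and 42.9 in the male WT mice. In females, Slfn3KO mice had 37.6, 34.0, 28.8 and 21.5 CPM and WT mice 20.3, 59.6, 108 and 113. The 3 libraries above 100 CPM were male WT replicate 3 and female WT replicates 3 and 4, all among the 4 with sex transcripts against the label. Among the other 4 WT mice Lyz2 lay between 15.1 and 59.6 CPM, within or just above the Slfn3KO range of 12.5 to 58.8.

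The log2 difference of Lyz2 was -1.12 ± 0.49 with both sexes, with an unadjusted p of 0.0368 and an adjusted p of 0.385 by edgeR. Without the 4 WT libraries it was 0.16 ± 0.44 (unadjusted p = 0.725), and without male WT replicate 3 alone it was -0.58 (unadjusted p = 0.226). Over the mice left out in turn the unadjusted p ran from 0.0135 to 0.226, and it was above 0.05 also without female Slfn3KO replicate 2, 3 or 4, male Slfn3KO replicate 1 or 2, or female WT replicate 3 or 4. With the replicate number as a block it was -0.78 (unadjusted p = 0.0644), and with no filter on low counts -1.13 (unadjusted p = 0.0504). In males it was -0.97 ± 0.83, and 0.81 ± 0.68 with WT replicates 3 and 4 left out. In females it was -1.32 ± 0.46 with an unadjusted p of 0.0201 and an adjusted p of 0.259 by edgeR, and -0.41 ± 0.41 with those replicates left out. Lyz1, its paralog, differed in the other direction at 0.97 ± 0.40 (unadjusted p = 0.0292, adjusted p = 0.361 by edgeR) and 0.69 (unadjusted p = 0.188) without the 4 WT libraries.

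Lyz1 exceeded Lyz2 in every library, by 2.85 times in male WT replicate 3 and by up to 181 times in male WT replicate 2. Over the 16 mice the log2 CPM of the pair had a Pearson r of -0.39, and of 0.053 over the 12 mice left without the 4 WT libraries. The library with the highest Lyz2 had a Lyz1 level of 513 CPM, the second lowest of all mice.

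The C1q genes moved together. C1qa was at 8.29, 10.9, 17.1 and 13.6 CPM in male Slfn3KO mice and 11.7, 8.66, 23.1 and 9.10 in male WT mice. In females it was at 14.8, 16.2, 8.43 and 9.51 CPM in Slfn3KO mice and 9.59, 12.99, 22.3 and 18.7 in WT mice. The mice with high C1qa were also those with high C1qb and C1qc, and the 2 highest were again male WT replicate 3 and female WT replicate 3. C1qb ranged from 6.88 to 16.1 CPM in Slfn3KO mice and from 7.19 to 21.9 in WT mice, and C1qc from 5.59 to 15.3 and from 6.68 to 18.9.

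The log2 differences between genotypes were -0.23 ± 0.24 for C1qa, -0.19 ± 0.27 for C1qb and -0.19 ± 0.26 for C1qc with all mice (unadjusted p = 0.368, 0.504 and 0.470 by edgeR). Without the 4 WT libraries they were 0.20 ± 0.22, 0.25 ± 0.26 and 0.13 ± 0.26. All 3 genes thus stayed within 1 standard error of 0 in both settings.

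**Figure D2:**
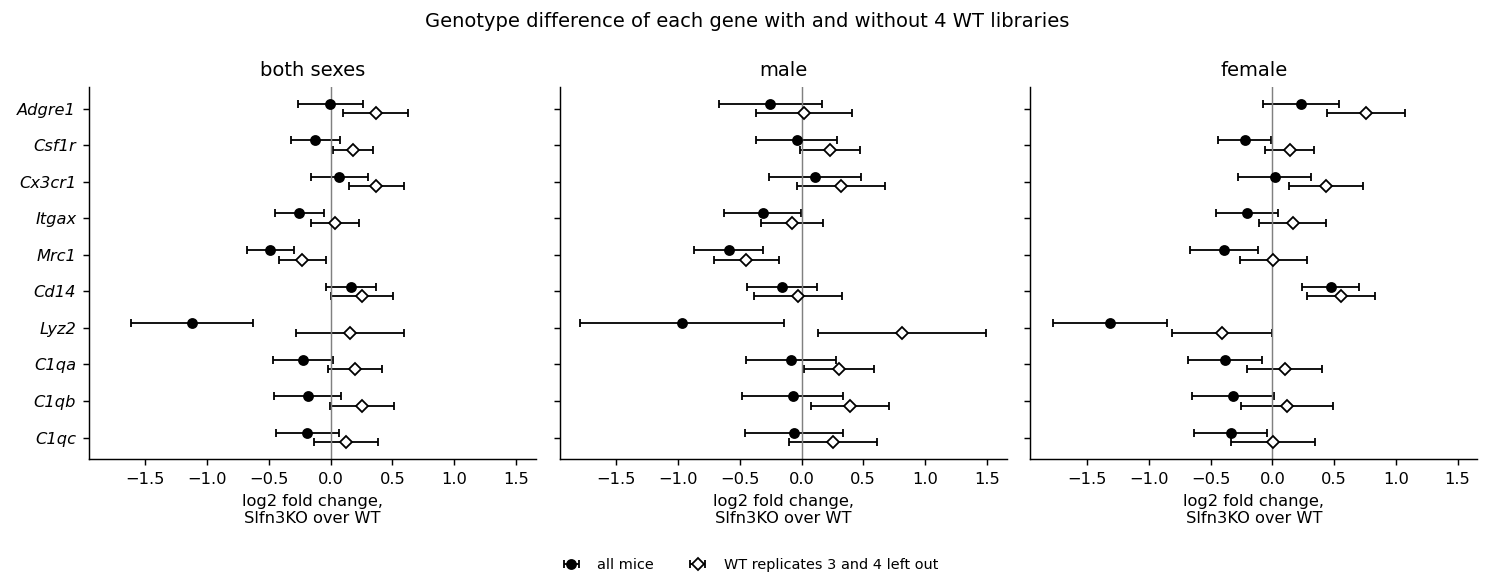
Log2 fold change, Slfn3KO over WT, of each of the 10 genes with its standard error, for both sexes together, males and females, with all mice (filled circles) and with WT replicates 3 and 4 left out (open diamonds). With both sexes, 8 of the 10 circles lie below 0 and 9 of the 10 diamonds above it, and Lyz2 moves from -1.12 to 0.16.

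Within a library the proportions of the C1q transcripts were steadier than their levels. The ratio of C1qa to C1qb in CPM lay between 0.988 and 1.33 over the 16 mice, a coefficient of variation of 8.71%, while C1qb itself varied 3.18-fold. The ratio of C1qc to C1qb lay between 0.683 and 1.07, with a coefficient of variation of 12.1%. The summed C1q genes over Csf1r gave 1.91 to 2.84, with a coefficient of 12.3% and medians of 2.24 in Slfn3KO mice and 2.38 in WT mice. Relative to Csf1r, then, C1q differed little between mice of either genotype.

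Lyz2 did not keep such a proportion. Its ratio to Csf1r ran from 1.18 to 6.83, with a coefficient of variation of 59.1% and medians of 2.24 in Slfn3KO mice and 4.41 in WT mice. The values above 4 were those of female WT replicates 2, 3 and 4 and male WT replicates 3 and 4. For the other genes over Csf1r the coefficient was 17.3% for Adgre1, 17.6% for Cx3cr1, 18.99% for Itgax, 23.4% for Mrc1 and 27.5% for Cd14.

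**Figure D3:**
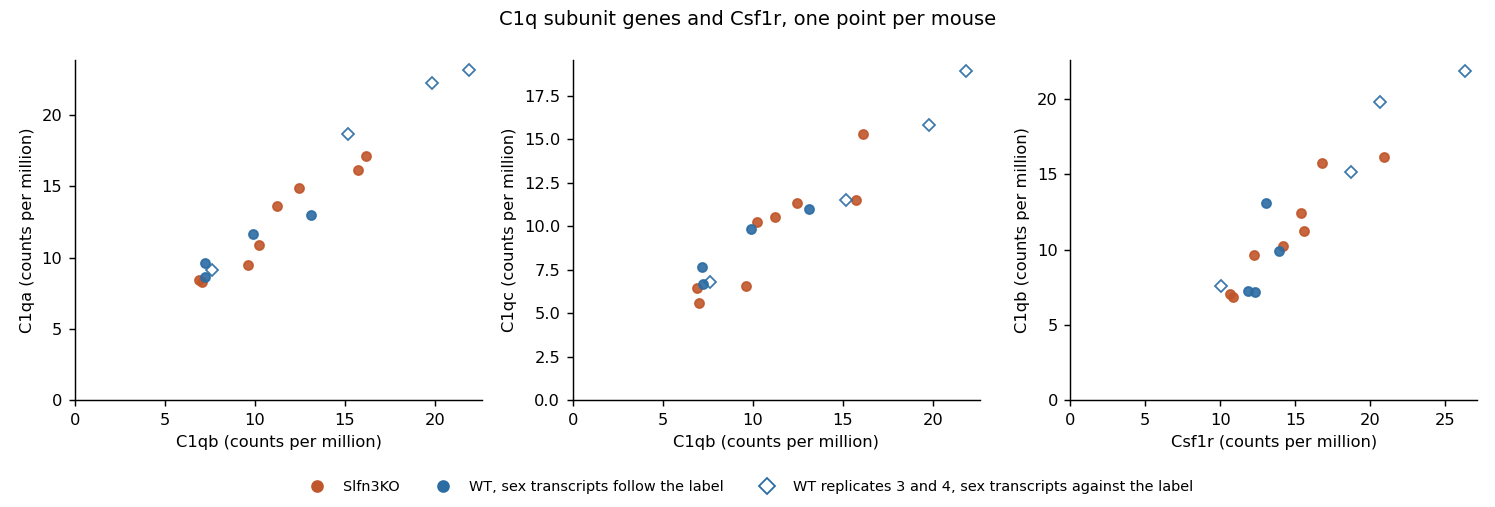
CPM of C1qa against C1qb, C1qc against C1qb and C1qb against Csf1r, with 1 point per mouse (orange, Slfn3KO; blue, WT; diamonds, the 4 WT libraries with sex transcripts against the label). Points of both genotypes lie along the same band, with a ratio of C1qa to C1qb between 0.988 and 1.33.

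As a description over the 16 mice, which share the scaling of their libraries, the 45 pairs of the 10 genes had Pearson correlations of log2 CPM from 0.15 to 0.98 with a median of 0.67. The C1q genes correlated with each other at 0.95 to 0.98 and with Csf1r at 0.94 to 0.95, and over the 12 mice without the 4 WT libraries these pairs still ranged from 0.89 to 0.96. With all 16 mice Cd14 had the lowest median correlation with the other genes, 0.49, and its lowest value, 0.15, with Mrc1. Over the 12 mice its median was 0.68, while those of Itgax and Mrc1 were 0.28 and 0.055. Mrc1 lost its likeness without the 4 WT libraries: its correlation with C1qa went from 0.57 to 0.026 and with Csf1r from 0.62 to 0.14.

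The genes most like the mean of C1qa, C1qb and C1qc over the 16 mice, among the other 14812 genes, were Cd68 (r = 0.95), Aif1 (0.95), Apoe (0.94), Pla2g7 (0.94) and Eaf2 (0.94). Cd68 and Aif1 are long-used macrophage markers. The mean of all 10 genes was most like Mpeg1 (0.97), which encodes the pore-forming macrophage protein perforin-2, followed by Gm2a (0.96), Pla2g7 (0.96), Dram1 (0.94) and Blnk (0.94). The genes were ranked on the same 16 mice, so these values describe the libraries and carry no test.

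Markers of other cell types moved with some of these genes, and their part in the results was not tested. In bulk mucosa, fewer cells of a type and less RNA per cell cannot be told apart. The B cell and follicle markers summed to 2.42 to 134 CPM in Slfn3KO mice (median 21.9) and 4.80 to 893 in WT mice (median 163), a spread far beyond that of any of the 10 genes. All 11 were lower in Slfn3KO mice, beside 50.7% of all genes, with Cxcl13, a chemokine of B cell follicles, the lowest at -3.16. Of the 11, 10 had an unadjusted p under 0.05, beside 11.9% of all genes, and none after adjustment. Without the 4 WT libraries 8 of the 11 were higher, beside 52.7% of all genes. The median log2 difference of the 11 then went from -3.00 to 0.073.

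Lyz2 correlated with several of the marker lists. Its log2 CPM had a Pearson r of 0.93 (Spearman 0.94) with the mean of the B cell markers over the 16 mice, and of 0.87 over the 12 mice without the 4 WT libraries. It had an r of 0.94 with the genes of CSF1, fractalkine and myeloid signalling, 0.93 with the other macrophage genes and 0.93 with the dendritic cell markers, and 0.85, 0.81 and 0.81 over the 12 mice. With the B cell markers the mean of the C1q genes had an r of 0.62, and 0.44 without the 4 WT libraries. Mrc1 had 0.51 with the B cell markers, and -0.14 without those libraries. The C1q mean had 0.89 with both the myeloid signalling genes and the other macrophage genes, 0.84 with the plasma cell markers and 0.80 with the endothelial markers, and 0.89, 0.82, 0.82 and 0.74 without the 4 WT libraries. With the fibroblast and smooth muscle markers it had 0.66 and 0.26, and 0.72 and 0.76 over the 12 mice. Cx3cr1 had 0.72, 0.27 and 0.88 with the fibroblast, smooth muscle and endothelial markers, and 0.92, 0.91 and 0.89 over the 12 mice. With the same lists Mrc1 had 0.18, -0.16 and 0.33, and -0.17, -0.20 and 0.010 over the 12 mice. The plasma cell markers summed to 561 to 4321 CPM in Slfn3KO mice and 833 to 3756 in WT mice, and the endothelial markers to 7.02 to 35.8 and 4.57 to 32.5.

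**Figure D4:**
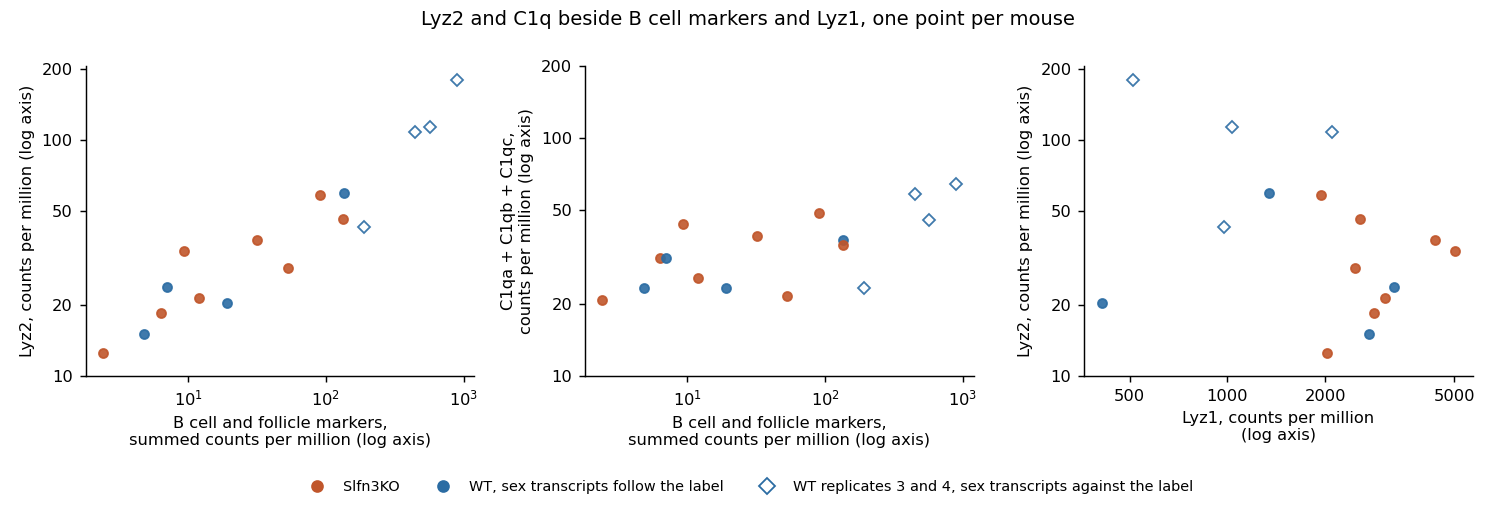
Lyz2 (left) and the summed C1q genes (middle) against the summed B cell and follicle markers, and Lyz2 against Lyz1 (right), in CPM on log axes, with 1 point per mouse (orange, Slfn3KO; blue, WT; diamonds, the 4 WT libraries with sex transcripts against the label). Lyz2 climbs with the B cell markers from 12.5 to 180 CPM, while the C1q genes show a looser relation.

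Other cell types were present to different degrees. All 7 Paneth cell markers, Lyz1 among them, were higher in Slfn3KO mice, from Mmp7 (0.84) to Ang4 (1.397), where 50.7% of all genes were lower. An unadjusted p under 0.05 was held by 6 of them, beside 11.9% of all genes, and none passed after adjustment. All 7 were still higher without the 4 WT libraries, beside 52.7% of all genes, at a median of 0.73. An unadjusted p under 0.05 was then held by 2 of the 7, beside 848 of all 14822 genes. The Paneth cell markers summed to 4630 to 13063 CPM in Slfn3KO mice and 1140 to 7669 in WT mice. All 9 T cell markers were lower, beside 50.7% of all genes, from Cd3e (-0.28) to Cd4 (-0.78), with sums of 52.2 to 147 and 53.3 to 234 CPM. Of the 9, 3 had an unadjusted p under 0.05, beside 11.9% of all genes, and none after adjustment. All 9 stayed lower without the 4 WT libraries, where 52.7% of all genes were higher. The pan-leukocyte gene Ptprc differed by -1.23 with all mice and -0.12 without the 4 WT libraries. Of the genes of neutrophils, which also make Lyz2, S100a8, S100a9, Cxcr2, Ly6g, Mpo and Ngp did not pass the filter. S100a9 reached at most 0.646 CPM and S100a8 at most 0.408, both in male WT replicate 3, the library with the highest Lyz2. Whether neutrophils added to the Lyz2 level was not tested.

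Monocyte and dendritic cell markers, whose cells share many of the 10 genes, were mostly low, apart from Itgae. The 6 monocyte markers summed to 1.59 to 5.09 CPM in Slfn3KO mice and 2.17 to 17.3 in WT mice. Of the 4 tested, 3 were lower, beside 50.7% of all genes. Among these 4, 1 (Nr4a1) had an unadjusted p under 0.05, beside 11.9% of all genes (log2 difference -1.19, and 0.07 without the 4 WT libraries). The dendritic cell markers summed to 14.8 to 43.4 and 17.4 to 65.8 CPM, with Itgae alone at 12.7 to 37.6 and 10.7 to 61.7. Of the 9 tested, 8 were lower, beside 50.7% of all genes, and 2 had an unadjusted p under 0.05, beside 11.9%. The differences ran from Cd209a (0.12) to Ccr7 (-2.05), the latter the receptor that guides cells to lymphoid tissue. When the 4 WT libraries were left out, all 4 monocyte markers and 6 of the 9 dendritic cell markers were higher, beside 52.7% of all genes.

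Beyond the 10 genes, 14 other macrophage genes were examined. Of these 11 passed the filter, while Cd163, Siglec1 and Trem2 did not, each at no more than 0.254 CPM in any mouse. In the comparison of both sexes 9 were lower and 2 higher, beside 50.7% of all genes lower, and the median was -0.27. Of the lower, 3 had an unadjusted p under 0.05 (Pld4, Timd4 and Ctss), beside 11.9% of all genes. The extremes were Fcgr1, a high-affinity antibody receptor, at 0.08 ± 0.30 and Pld4, a lysosomal nuclease, at -1.21 ± 0.43. With the 4 WT libraries left out 8 were higher and 3 lower, beside 52.7% of all genes higher, with a median of 0.086. Fcgr1 was then at 0.22 and Pld4 at 0.09.

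Among 13 genes of CSF1, fractalkine and myeloid signalling, 9 were lower and 4 higher, beside 50.7% of all genes lower, with a median of -0.19. An unadjusted p under 0.05 was held by 3 of the lower and 1 of the higher, beside 11.9% of all genes. Without the 4 WT libraries 8 were higher and 5 lower, beside 52.7% of all genes higher, at a median of 0.057. Irf5, a transcription factor of inflammatory macrophages and B cells, was lowest at -1.27 ± 0.47 (unadjusted p = 0.0162), and 0.17 without the 4 WT libraries. Il34, which encodes a ligand of the receptor made from Csf1r, was highest at 0.65 ± 0.23 (unadjusted p = 0.0121, adjusted p = 0.332 by edgeR). It kept its direction without those libraries, at 0.96 (unadjusted p = 0.0045, adjusted p = 0.766 by edgeR). The gene for PU.1, Spi1, named here after its value was seen, was at -1.04 ± 0.41 with all mice and 0.03 without them.

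In the LPS receptor pathway 7 of 8 genes were tested, 6 lower and 1 higher, beside 50.7% of all genes lower. None had an unadjusted p under 0.05, beside 11.9% of all genes, and the median was -0.056. Without the 4 WT libraries 4 were higher and 3 lower, beside 52.7% of all genes higher, at a median of 0.097. Ly96 was highest at 0.17 ± 0.12, and 0.27 without those libraries, and Tlr4 lowest at -0.19 ± 0.51. Tlr4 was at 1.30 without the 4 WT libraries (unadjusted p = 0.00837, adjusted p = 0.766 by edgeR).

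The rest of the complement system was patchy in this tissue. Of 21 cascade genes 20 were found by symbol and 11 passed the filter. Of these 8 were lower and 3 higher, beside 50.7% of all genes lower, with a median of -0.18. Without the 4 WT libraries 3 were lower and 8 higher, beside 52.7% of all genes higher, with a median of 0.24. C1ra and C1s1, the proteases that act with C1q, were at 0.808 to 3.14 and 0.703 to 8.76 CPM over the 16 mice, and C2 at 18.2 to 51.7. The extremes were Cfd, an adipocyte-made protease of the alternative pathway, at 1.28 ± 1.83 and Mbl2, a lectin that starts its own pathway, at -1.15 ± 1.51. Both had standard errors larger than the difference with all mice. Without the 4 WT libraries Mbl2 was at -2.71 ± 1.66 and Cfd at 3.61 ± 1.62 (unadjusted p = 0.0459, adjusted p = 0.766 by edgeR), and Cfd had 0 reads in 6 of 16 mice. C4b (-1.15 ± 0.48) and Cfp (-0.88 ± 0.36) had an unadjusted p under 0.05 with all mice and were at -0.03 and 0.05 without the 4 WT libraries.

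Among the 16 complement receptors and regulators, 14 were tested. Of these 10 were lower and 4 higher, beside 50.7% of all genes lower, with a median of -0.15. An unadjusted p under 0.05 was held by 3 of the lower (Cr2, Clu and Itgb2) and 1 of the higher (C4bp), beside 11.9% of all genes. Clu was at -2.37 and Itgb2 at -0.81, and at -0.07 and -0.16 without the 4 WT libraries. Without the 4 WT libraries 6 were lower and 8 higher, beside 52.7% of all genes higher, with a median of 0.087. Cr2, which B cells and follicular dendritic cells carry and which also stands among the B cell markers, was lowest at -3.15 ± 1.23 (unadjusted p = 0.0215), and 0.34 without the 4 WT libraries. C4bp, an inhibitor of the classical pathway, was highest at 0.53 ± 0.24 (unadjusted p = 0.0392), and 0.34 without them. Vsig4, a complement receptor of some tissue macrophages, did not pass the filter and was at 0 in 12 of 16 mice.

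**Figure D5:**
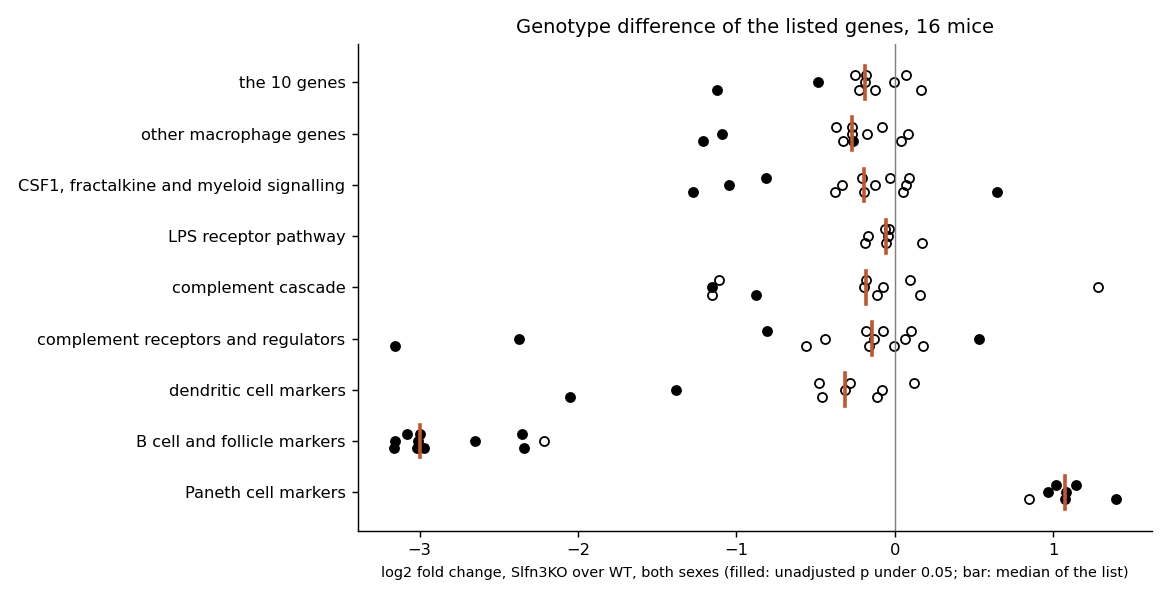
Log2 fold change, Slfn3KO over WT with both sexes and all mice, of every tested gene in the 10 genes and in 8 other lists (filled, unadjusted p under 0.05; orange bar, the list's median). The 10 genes have a median of -0.19, beside -3.00 for the B cell and follicle markers and 1.07 for the Paneth cell markers.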

How the data were processed

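Bulk RNA was sequenced from ileal mucosa of 16 mice (single reads, TruSeq stranded libraries per the labels). The authors trimmed reads with cutadapt, aligned them to mm10 with STAR and deposited 1 table of raw read counts per gene, not normalized. The submitters' processing notes name featureCounts 1.4.6 and DESeq2 1.22.2, and the methods of the study name HTSeq for counting. How multi-mapping reads and strand were handled was not given in the sources used here. The table also gives an exon length per gene, and 45143 of 46078 gene identifiers (98.0%) matched a symbol. All 16 sample columns were used.

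Genes were filtered with filterByExpr over the 4 groups and fitted in edgeR 4.0.16 (R 4.3.3) with TMM factors and its robust quasi-likelihood test, over all genes tested (14822 with both sexes, with labelled sex as covariate, 14124 in males, 14064 in females). The p-values were adjusted by Benjamini-Hochberg. A gene was called at an adjusted p under 0.05 and at least 1.5-fold. CPM used TMM library sizes, and correlations used log2 CPM with a prior count of 2. A count of 3 reads, the limit that 0 reads allows, was 0.100 to 0.151 CPM and covers counting error only. The labels do not say whether replicates come from separate litters, so p-values measure the spread between these mice. Same-group libraries differed by more than sampling noise.

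Alternatives were RLE and upper quartile factors, DESeq2 1.42.0, other low-count filters, no sex covariate, all 4 groups in the fit, the replicate number as a block, each mouse left out, and WT replicates 3 and 4 left out. The last was applied to the gene lists and correlations after the data had been seen. The replicate numbers of the labels were checked as pairs by correlating how same-numbered Slfn3KO and WT samples deviated from their group means. The r was 0.23, 0.32, 0.52 and 0.14 in males and -0.36, 0.14, -0.34 and -0.11 in females. The same-numbered WT sample was the closest match only for male replicates 2 and 3.

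The 10 genes, the gene lists and the tests were chosen with earlier results of these data known. The genes named beyond the 10 are Slfn3, Lyz1, the genes with the highest and lowest difference in each list (1 of them is not reported here), and the 5 genes most like the C1q mean and the 5 most like the mean of the 10. Others named in the text were chosen after their values were seen.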

Additional observations from a re-analysis of the deposited data

Results flagged for a closer look

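In 1 of the 40 sets of 4 mice examined (10 genes in 4 groups), a single library stood apart from the other 3. Lyz2 was at 180 CPM in male WT replicate 3 and between 15.1 and 42.9 CPM in the other male WT mice, and the gap to the nearest mouse took up 0.832 of the whole range, above the 95% critical value of Dixon's test for 4 samples. Chance alone flags about 5% of groups of this size. The same library had the highest value of all 16 mice for 8 of the 10 genes, the highest sum of B cell and follicle markers (893 CPM), and sex transcripts against its label.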

How the results depend on the processing

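The count of genes called was 0 in all 4 comparisons and 0 with any single mouse left out. DESeq2 called 54 genes with both sexes, 14 in males, 507 in females and 19 for the difference between the sexes. An unadjusted p under 0.05 with 1.5-fold gave 984, 272, 1366 and 946, and 1 of the 10 genes. The difference between the sexes gave 393 genes without WT replicates 3 and 4, and the replicate block gave 1 gene with both sexes. With the block the log2 difference of Lyz2 was -0.78 with an unadjusted p of 0.0644 with both sexes and -1.11 with 0.108 in females, Adgre1 was 0.052 with both sexes, and in males Csf1r and C1qb were 0.027 and 0.033. The block raised the male count at an unadjusted p and 1.5-fold from 272 to 447 and changed no other call of the 10 genes. Upper quartile factors put Adgre1 at 0.018.

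Without WT replicates 3 and 4 these log2 differences changed sign: with both sexes Adgre1 0.36, Csf1r 0.18, Lyz2 0.16, C1qa 0.20, C1qb 0.25, C1qc 0.13 and Itgax 0.037. In males they were Adgre1 0.020, Csf1r 0.23, Lyz2 0.81, C1qa 0.30, C1qb 0.39 and C1qc 0.26, and in females Csf1r 0.14, C1qa 0.10, C1qb 0.12, C1qc 0.0050, Itgax 0.16 and Mrc1 0.0086. The cause was not tested. Of the values recomputed with a setting changed, 263 kept their direction and side of the threshold, 11 counts moved and 23 differences changed sign. With a mouse left out, 371 kept them and 29 changed sign.

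With 1 mouse left out, the value for both sexes ranged from -0.12 to 0.21 for Adgre1, -0.23 to 0.038 for Csf1r, -0.30 to 0.031 for C1qb and -0.062 to 0.22 for Cx3cr1. In males it ranged from -0.54 to 0.19 for Adgre1, -0.23 to 0.36 for Csf1r, -0.33 to 0.059 for Cd14, -1.37 to 0.34 for Lyz2, -0.28 to 0.36 for C1qa, -0.31 to 0.46 for C1qb, -0.31 to 0.38 for C1qc, -0.47 to 0.030 for Itgax and -0.17 to 0.46 for Cx3cr1, and in females from -0.16 to 0.29 for Cx3cr1. Mrc1 with both sexes stayed between -0.56 and -0.37, with an unadjusted p up to 0.0563. Most of the highest values came without male WT replicate 3. Adgre1, Cx3cr1 and Mrc1 had the fewest reads, 20 to 196 per library.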
